A study of Arabidopsis thaliana with 14 samples.

Results

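The first wave of the cold response in unprimed leaves was described by the ratio of 1 library to another: whole rosettes of unprimed Arabidopsis thaliana Col-0 after 30 min at 4 °C (C30C) against untriggered, unprimed rosettes (C0). The value of a gene is its FPKM, the number of sequenced fragments per kilobase of transcript and per 1 M mapped fragments, so levels of different genes can be set side by side. Genes were taken when their mean over the 14 libraries of the series was at least 2 FPKM, which kept 15074 of the 27861 genes in the table. MDO1, at 2.32 FPKM in C0 and 2.17 in C30C, lay just inside this limit and WAKL7, at 2.70 and 1.44, just outside it.

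All plants were wild type, were grown in soil for 28 d at 20 °C with 10 h of light of 100 to 110 µmol m-2 s-1, and were kept for 5 d more before triggering. Primed plants (P) had spent 24 h at 4 °C before those 5 d, whereas unprimed plants (C) had not. The libraries used beside C0 and C30C are the untriggered and the 30 min cold library of primed plants (P0 and P30C), the later cold libraries of unprimed (60 and 120 min, C60C and C120C) and primed plants (P60C and P120C) and the 30 min high light libraries at 800 µmol m-2 s-1 (C30L and P30L). Summed levels of gene lists are also given over all 14 libraries, with the 60 and 120 min high light ones. Each library was made from the pooled rosettes of at least 5 plants. There is 1 library per condition, so no ratio below has an error from replicates and no test was made. Untriggered plants were sampled at the start only, and the time of day that passed during triggering therefore cannot be told apart from the treatment. P30C/P0 comes from other plants and shares no library with C30C/C0, and it was used as the nearest to a repeat, although the plants were primed.

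When a leaf is chilled, calcium enters the cytosol within seconds, and calmodulin-binding factors of the CAMTA family together with clock and MYC-type proteins switch on the C-repeat binding factors CBF1, CBF2 and CBF3. The CBF proteins bind the CRT/DRE element in the promoters of COR genes, whose products protect membranes and proteins against freezing. Other regulators, among them ZAT zinc fingers, RAV and ERF factors, are switched on in parallel with the CBF genes, and many of them also answer touch, wounding and pathogens.

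A ratio existed for 15059 of the 15074 genes, and the other 15 were listed at 0 in C0 (11 genes), in C30C (6) or in both (2). Most genes moved little: 13599 of them stayed within 1.5-fold, the threshold used by the study. At least 1.5-fold higher in C30C were 643 genes, 4.27% of those with a ratio, and at least 1.5-fold lower were 817 genes, 5.43%. The order of these 2 counts depends on the scaling, with 755 risen and 563 fallen genes after scaling by the reference genes and 813 and 505 after scaling by the median ratio. The risers reached further than the fallers. At least 2-fold changes were counted for 273 risen and 166 fallen genes, 4-fold ones for 50 and 6, and 8-fold ones for 12 and 1. The median log2 ratio of all genes was -0.11, and 5% of the genes lay below -0.61 and 5% above 0.50. The 8 constitutively expressed reference genes of the study had log2 ratios between -0.25 (SAND) and 0.03 (UBC9), with a median of -0.10. The smallest rise counted was that of AT1G03070 (0.20 FPKM in C0 and 0.30 in C30C) and the largest not counted that of GTR1 (57.7 and 86.6), while RECQ4A (3.03 and 2.02) was the smallest fall counted and emb1427 (7.0 and 4.67) the largest not counted.

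Primed plants showed more of the same rises than of the same falls, and fewer genes fell in them altogether. Of the 643 risen genes, 512 (79.6%) were also at least 1.5-fold higher in P30C than in P0, where 6.98% of all genes were. Only 6 of them were at least 1.5-fold lower there. Of the 817 fallen genes, 88 (10.8%) also fell in P30C/P0, where 1.16% of all genes did, and 33 rose. Read from the primed pair, 512 of its 1051 risen genes (48.7%) had risen in C30C/C0 and 88 of its 174 fallen genes (50.6%) had fallen there. Below 0 in P30C/P0 were 572 of the 817 fallen genes (70.0%), against 50.4% of all genes. The median of the risen genes was 0.92 in C30C/C0 and 1.12 in P30C/P0, that of the fallen genes was -0.75 and -0.17. Both cold libraries lay at least 1.5-fold above both untriggered libraries for 422 of the risen genes, and at least 1.5-fold below both for 61 of the fallen ones. Across the 15054 genes with both ratios Pearson's r was 0.65, a description over genes that share libraries and are not independent.

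**Figure D1:**
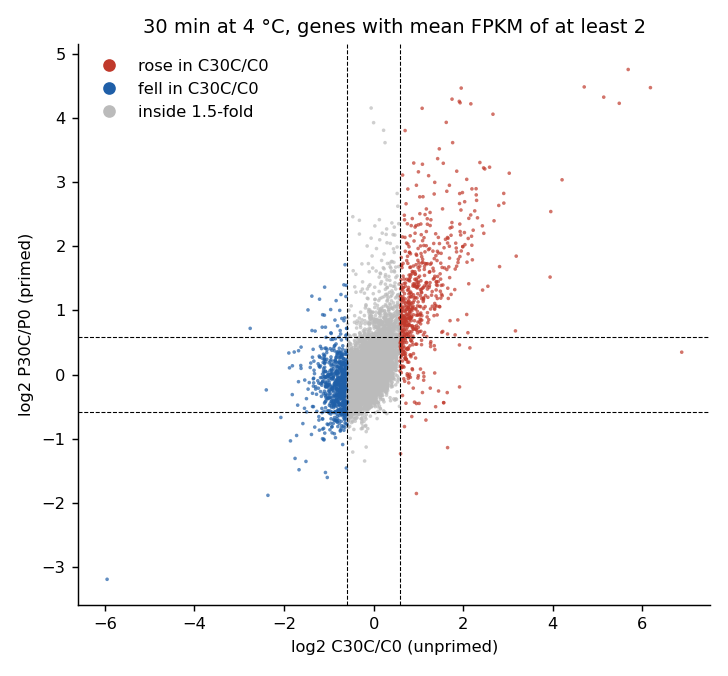
Each point is a gene, with log2 C30C/C0 of unprimed plants on the x axis and log2 P30C/P0 of primed plants on the y axis; dashed lines mark 1.5-fold. The 643 risen genes (red) mostly lie above the upper dashed line of the primed pair, 512 of them, while the 817 fallen genes (blue) are spread over both sides of 0 on the y axis, 572 of them below 0 and 88 under the lower line.

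Among the genes with at least 0.5 FPKM before triggering that rose in both pairs, the CBF genes had the highest ratios. CBF3 (DREB1A), one of the 3 neighbouring CBF genes on chromosome 4, was at 0.68 FPKM in C0, 2.01 in P0, 30.4 in C30C and 37.7 in P30C, which made its log2 C30C/C0 5.48 (44.7-fold). CBF2 was at 2.04 FPKM in C0, 4.05 in P0, 71.7 in C30C and 81.1 in P30C, a log2 ratio of 5.14. CBF1 was at 0.50, 0.74, 13 and 16.6 FPKM in the same order, a log2 ratio of 4.70. For all 3 genes both cold libraries lay far above both untriggered ones. CBF2 had the highest level of the 3 in C30C, although its ratio was below that of CBF3, whose level in C0 was lower. In P30C/P0 the order of the ratios was reversed, with 4.23 for CBF3, 4.32 for CBF2 and 4.48 for CBF1. With P0 in place of C0 the ratio of CBF3 was 3.92. The coding sequences of the 3 genes are 86.9% to 87.5% identical where they align, so reads could be shared between them in the authors' quantification, and the split between the 3 is less certain than their joint rise. From the steps of the values about 20 fragments stood behind CBF3 in C0 and 842 in C30C, and the exact binomial 95% interval of the log2 ratio, which covers counting error only, runs from 4.86 to 6.21. The related DDF1 went from 1.92 FPKM in C0 to 6.03 in C30C (1.65), but in primed plants it was at 6.32 before and 2.87 after the cold, so its 2 ratios have opposite signs. CEJ1 rose from 2.00 to 7.41 FPKM (1.89) and in primed plants from 1.83 to 6.36. In the whole list of CBF, DDF, DREB2 and related AP2 factors 8 of 12 measured genes rose and none fell, with a median of 0.98. The drought factor DREB2A was among the risen ones, at 0.66 FPKM in C0 and 1.26 in C30C. With 1 FPKM added to each value its log2 ratio went from 0.93 to 0.45. Both levels are under 2 FPKM, so DREB2A passed the filter on the mean through other libraries. It was at 20.7 FPKM in C30L, and this contrast between light and cold is not a separate result.

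None of the 18 regulators upstream of the CBF genes rose or fell by 1.5-fold. Most genes did not either: 13599 of the 15059 with a ratio stayed within 1.5-fold, so this count does not set the regulators apart. Their median was -0.14, close to that of all genes, and the range went from -0.42 for HOS1, a ubiquitin ligase that acts on the CBF activator ICE1, to 0.52 for PUB25, a ubiquitin ligase of the cold response. The CAMTA genes were among them: CAMTA1 was at 14.8 FPKM in C0 and 11.9 in C30C, and CAMTA2 at 7.42 and 5.66.

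CAMTA proteins bind the letters CGCG within promoters, and clock proteins of the CCA1 and RVE type bind the evening element. The 250 bases before the gene start in the TAIR10.1 assembly (RefSeq annotation) are shown for 2 strong risers with CGCG in capitals, CBF2 on chromosome 4 (chr4:13016236-13016485, minus strand) and DIC2 (chr4:12686209-12686458, plus strand).
CBF2: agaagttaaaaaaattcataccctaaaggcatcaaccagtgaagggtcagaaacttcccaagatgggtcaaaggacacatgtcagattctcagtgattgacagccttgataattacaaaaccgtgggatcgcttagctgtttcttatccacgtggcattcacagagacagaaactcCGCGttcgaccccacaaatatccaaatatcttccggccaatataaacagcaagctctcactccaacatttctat
DIC2: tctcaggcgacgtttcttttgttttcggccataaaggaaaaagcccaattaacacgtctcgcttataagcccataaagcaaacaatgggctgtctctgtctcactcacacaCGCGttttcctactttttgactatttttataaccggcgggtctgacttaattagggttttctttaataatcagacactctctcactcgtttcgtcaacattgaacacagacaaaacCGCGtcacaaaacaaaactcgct
The letters begin 74 bases before the start of CBF2, and 139 and 23 bases before that of DIC2. CBF1 and CBF3 do not hold them in the 250 bases before their own annotated starts, and bases further upstream were not searched.

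Next to the CBF genes stood genes of hormone turnover, transport and ERF or ZAT control. CYP707A3, which encodes an abscisic acid hydroxylase, was at 2.51 FPKM in C0, 2.98 in P0, 20.5 in C30C and 26.2 in P30C (log2 3.03). ZAT10 (STZ), a zinc finger repressor of stress responses, was at 9.33, 9.09, 69.9 and 58.0 FPKM (2.91). DIC2, a mitochondrial dicarboxylate carrier, was at 16.7, 19.8, 124.7 and 140.4 FPKM (2.90) and had the highest level in C30C among the 12 most risen genes. ERF5, an ethylene response factor of defence and growth control, was at 2.51, 2.33, 17 and 14.5 FPKM (2.79). In each of these 4 genes the values before and after the cold did not overlap between the primed and unprimed plants. PR1, a secreted protein and marker of salicylic acid signalling, rose from 5.65 to 35.8 FPKM (2.66), and in primed plants from 6.04 to 100.6. Its level also differed between single libraries without cold, at 1.47 FPKM in C30L and 53.5 in P30L. AT5G62360, annotated as a pectin methylesterase inhibitor family protein, rose from 1.28 to 6.91 FPKM (2.43) and the hypothetical protein AT2G25735 from 1.72 to 9.43 (2.45). The O-fucosyltransferase family gene AT1G38065 was at 0.72 FPKM in C0 and 6.46 in C30C (3.17), but its level before triggering in primed plants was 3.3, so its primed ratio was only 0.68. The non-coding AT3G09795 went from 1.55 to 10.9 FPKM (2.81) on about 13 and 84 fragments, and it overlaps AT3G62580, whose own log2 ratio was 0.05. The highest ratio of all members, 6.88 for the non-coding RNA AT5G01215, which lies outside the rule for naming, rested on 0.02 FPKM in C0, and the gene was at 3.73 in P0 and 4.75 in P30C.

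**Figure D2:**
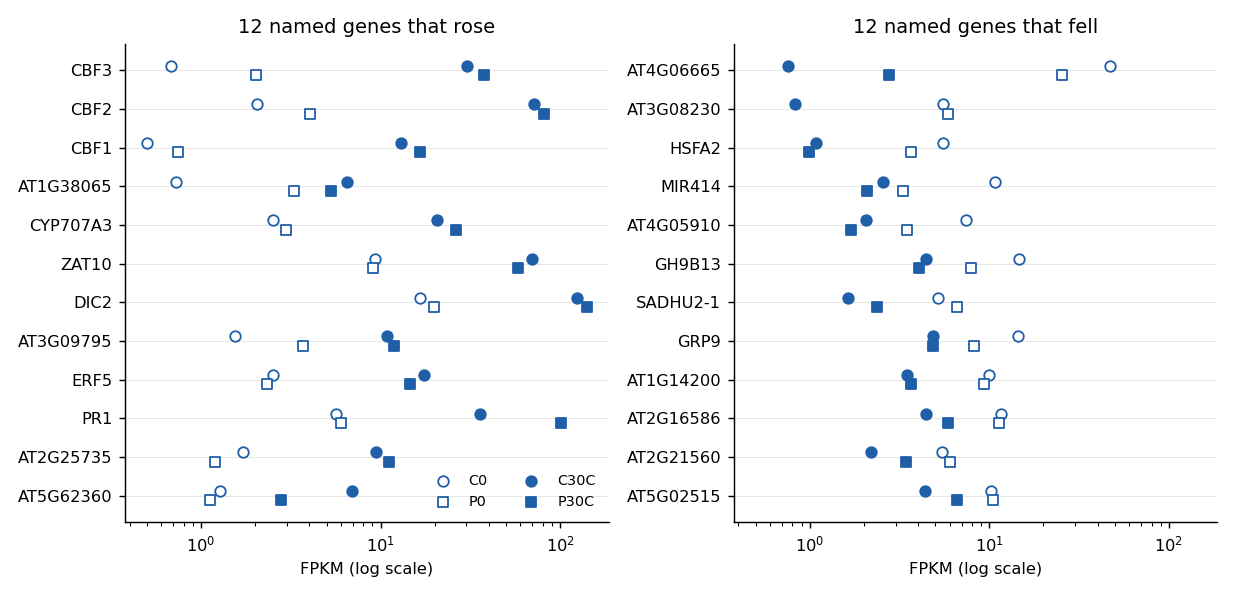
FPKM on a log scale of the 12 most risen and the 12 most fallen named genes in C0 (open circles), P0 (open squares), C30C (filled circles) and P30C (filled squares). CBF3 moved from 0.68 to 30.4 FPKM and HSFA2 from 5.54 to 1.08; P30C of AT3G08230 was 0 and is not drawn.

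Among the zinc finger genes 7 of 11 rose and none fell, with a median of 1.29, the highest of all lists. Besides ZAT10 these were ZAT12 (2.80 FPKM in C0, 12.8 in C30C, log2 2.19), ZAT6 (4.57 and 17.42, 1.93), both regulators of the oxidative and cold stress response, the tandem CCCH genes SZF1 (21.4 and 70.8, 1.73) and SZF2 (4.19 and 11.6, 1.47), OZF2 (15.2 and 37.1, 1.29) and AT2G28200 (4.89 and 7.35, 0.59). For the first 6 of them P30C/P0 was between 1.24 (OZF2) and 2.89 (ZAT12), whereas it was 0.06 for AT2G28200. In the list of RAV/TEM and MYB44-group regulators 6 of 7 rose. RAV1, an AP2/B3 factor that restrains leaf growth, was at 10.14 FPKM in C0, 11.7 in P0, 54.5 in C30C and 58.2 in P30C (2.43), and TEM1, a repressor of flowering, at 5.24, 6.28, 23.9 and 25.4 (2.19). MYB77 (1.14), MYB73 (1.03), TEM2 (0.82) and MYB44 (0.60) rose less. In C30L both RAV1 (3.89 FPKM) and TEM1 (3.45) were below their level in C0.

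Of the 25 ethylene response factors of stress 14 rose and none fell, with a median of 0.74, which was 0.30 over the 12 genes with a mean of at least 10 FPKM. The ones with the largest ratio after ERF5 were AT1G22810 (0.49 to 2.87 FPKM, 2.55), ERF6 (1.36 to 6.69, 2.3), ERF104 (2.02 to 8.81, 2.1), ABR1 (0.73 to 3.18, 2.1) and ORA59 (1.34 to 5.79, 2.11), a factor that joins ethylene and jasmonate signals. Of these 14, 13 rose in the primed pair too. The exception was RRTF1, a factor of redox signalling, at 16.2 and 26.7 FPKM in unprimed and 10.2 and 12.1 in primed plants. Of the 21 WRKY factors, which steer defence genes, 15 rose, all 15 also in the primed pair, and 1 fell. WRKY40 rose from 6.82 to 24.6 FPKM (1.85), WRKY18 from 17.82 to 64.0 (1.84), WRKY22 from 3.06 to 9.92 (1.70), WRKY11 from 18.6 to 47.2 (1.34), WRKY53 from 4.58 to 11.1 (1.28) and WRKY33 from 16.3 to 34.8 (1.09). WRKY17 fell from 5.67 to 2.69 FPKM (-1.08) and was at 5.29 and 5.48 in primed plants. The median of the list was 0.83 in unprimed and 1.51 in primed plants. Its untriggered levels differed too, with a median log2 P0/C0 of -0.33. With P0 in place of C0 the median for C30C was 1.22.

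Of the calcium sensors and touch genes 10 of 20 rose and none fell, with a median of 0.55. TCH4, a cell wall xyloglucan endotransglucosylase, was at 25.2 FPKM in C0, 24.4 in P0, 100.1 in C30C and 97.4 in P30C (1.99), and fell to 6.87 in C30L. The calmodulin-like CML38 rose from 5.96 to 26.4 FPKM (2.15), although in primed plants the change from 12.3 to 16.4 was small. XTH33 (1.42), CML23 (0.99), CBP60G (0.95), which drives salicylic acid synthesis, and TCH2 (0.79) rose as well, and so did CML39 (1.75), from only 0.33 FPKM. Among 12 genes of the MAP kinase cascade 3 rose: MKK9 (5.56 to 17.5 FPKM, 1.65), the phosphatase AP2C1 (9.0 to 25.6, 1.51) and MPK11 (1.58 to 3.00, 0.93). The other 9 stayed within 1.5-fold, and the list's median was 0.06.

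The COR genes themselves were still close to their start. Of 21 COR, KIN and dehydrin genes 4 rose and 1 fell, with a median of 0.31, and 1.47 in C120C/C0. The dehydrin gene LTI30 rose from 4.08 to 10.7 FPKM (1.4) and went on to 18.7 at 60 min and 90.08 at 120 min. COR47, another dehydrin, was at 122.0 FPKM in C0, 185.7 in C30C (0.61) and 647.5 in C120C. COR27 (0.15 and 0.27 FPKM) and RD29B (0.98 and 1.58) rose at low level, and the alcohol dehydrogenase gene ADH1 fell from 2.27 to 1.35 (-0.75). The summed level of the list was 2778 FPKM in C0 and 3105 in C30C.

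Among 26 circadian clock genes 4 rose and none fell. PRR5, a repressor of the clock's morning genes, was at 0.11 FPKM in C0, 0.25 in P0, 2.03 in C30C and 2.05 in P30C, a log2 ratio of 4.21, and reached 44.3 at 60 min and 338.9 at 120 min. The ratio rests on a level near 0 in C0 and was 1.45 with 1 FPKM added to each value. PRR5 passed the filter on the mean through its later cold values, so its climb is not a separate result. PRR5 transcripts also cycle with the time of day, and the part of the time of day in this rise was not tested. In C30L, harvested after the same 30 min, it was at 0.23. The other 3 were AT1G69570 (2.29 to 3.87 FPKM, 0.76), the reveille factor RVE1 (5.45 to 8.92, 0.71) and LNK3 (95.3 to 146.7, 0.62). The promoters of PRR5 (chr5:8358547-8358796, minus strand) and ZAT12 (chr5:24102564-24102813, plus strand) are shown because they hold the evening element, AAAATATCT or its reverse complement, in capitals.
PRR5: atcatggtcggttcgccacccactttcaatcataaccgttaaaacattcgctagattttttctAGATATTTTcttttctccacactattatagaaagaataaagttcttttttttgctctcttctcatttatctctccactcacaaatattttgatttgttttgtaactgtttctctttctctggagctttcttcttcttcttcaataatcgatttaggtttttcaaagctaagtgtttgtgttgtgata
ZAT12: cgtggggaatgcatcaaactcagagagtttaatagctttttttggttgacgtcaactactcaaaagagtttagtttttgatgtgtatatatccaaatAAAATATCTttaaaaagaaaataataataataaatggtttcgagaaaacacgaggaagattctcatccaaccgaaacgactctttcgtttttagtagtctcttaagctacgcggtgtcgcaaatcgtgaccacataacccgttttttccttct
The capitals begin 187 bases before the start of PRR5 and 153 before that of ZAT12.

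The motifs were counted on both strands in the window from 250 bases before to 50 bases after the gene start, which could be read for 15022 genes with a ratio. The evening element was found in 7.85% of 637 promoters of risen genes, 2.72% of 809 of fallen genes and 3.14% of all. CGCG was in 21.5%, 11.5% and 14.1%, and the W-box (TTGACC or TTGACT), which WRKY factors bind, in 39.1%, 26.3% and 31.8%. The heat shock element core GAANNTTC was in 18.5% of the risen, 11% of the fallen and 11.3% of all promoters. The CRT/DRE core CCGAC, the target of the CBF proteins, was in 19.6%, 15.2% and 17.1% of the same 3 sets. In the same order, the sugar response letters TATCCA were in 19.5%, 15.1% and 16.9%, the G-box CACGTG in 11.5%, 7.66% and 9.32% and the GCC box GCCGCC in 3.61%, 2.6% and 2.71%. Among genes changed at least 2-fold the GCC box was in 15 of 269 risen (5.58%) and 3 of 164 fallen promoters (1.83%). CGCG was in 20.8% and 6.71% of these, and CCGAC in 19.0% and 10.4%. Among genes changed in both pairs the GCC box was in 21 of 511 risen (4.11%) and 7 of 86 fallen promoters (8.14%). There CGCG was in 22.5% and 6.98%, and CCGAC in 19.6% and 18.6%. Matches of these short letters are a description of the windows and not binding sites.

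HSFA2 and MBF1C were the genes of the heat shock factor list that fell in both pairs. HSFA2, the heat-inducible heat shock factor, was at 5.54 FPKM in C0, 3.65 in P0, 1.08 in C30C and 0.99 in P30C (-2.36). It fell on to 0.41 at 60 min and 0.26 at 120 min, while in C30L it was at 253.5 FPKM. The RING/U-box gene AT1G14200 was at 9.94, 9.38, 3.49 and 3.67 FPKM in the same order (-1.51) and at 104.0 in C30L. Both genes were thus low after cold and high after 30 min of light in these libraries. HSFA2 passed the filter on the mean through its light values, so its contrast between light and cold is not a separate result. MBF1C, a coactivator of the heat response, fell from 12.9 to 6.78 FPKM (-0.93) and from 13.9 to 7.91 in primed plants, and HSFB2B (-1.10) and HSFA7A (-0.74) fell in unprimed plants only by this threshold. Of the 12 measured genes of this list, MBF1C included, 4 fell and 2 rose. The risen ones were HSFA8 (1.46 to 3.70 FPKM, 1.34) and HSFA4A (4.22 to 9.38, 1.15), and these 2 rose in primed plants also. Among 26 heat shock proteins and co-chaperones 5 fell and 1 rose, with a median of -0.32. Several of them are near 0 without light stress and passed the filter on the mean through the light libraries, among them AT1G53540 (0.09 FPKM in C0 and 0.04 in C30C), counted as fallen, and the 1 gene counted as risen (0.13 and 0.21). HSP101 fell from 4.31 to 2.05 FPKM, and HSP90.3 fell from 224.9 to 145.4 (-0.63) and in primed plants from 218.7 to 135.3. The summed level of the list fell from 2386 to 1823 FPKM, and from 2282 to 1786 in primed plants. The promoter of HSFA2 (chr2:11135374-11135623, plus strand) holds 2 heat shock element cores, in capitals, before its start.
HSFA2: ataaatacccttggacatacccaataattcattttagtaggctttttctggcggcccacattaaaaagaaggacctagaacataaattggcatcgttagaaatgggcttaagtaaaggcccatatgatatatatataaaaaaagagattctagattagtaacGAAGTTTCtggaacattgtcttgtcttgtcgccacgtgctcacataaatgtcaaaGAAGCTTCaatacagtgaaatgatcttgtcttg

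The remaining named fallers were the cell wall glycosyl hydrolase gene GH9B13 (14.7 FPKM in C0, 7.86 in P0, 4.46 in C30C, 4.07 in P30C, -1.72), the glycine-rich protein gene GRP9 (14.4, 8.22, 4.83, 4.84, -1.58), the transmembrane protein gene AT2G16586 (11.6, 11.3, 4.45, 5.90, -1.39), AT2G21560 (-1.31), the SADHU2-1 element (-1.66) and 5 short or non-coding RNAs. GH9B13 and GRP9 were already lower in P0 than in C0, whereas AT2G16586 had like levels in both. Of the RNAs, AT4G06665 fell from 46.9 to 0.76 FPKM (-5.95) and from 25.3 to 2.77 in primed plants, but was back at 40.6 in C60C and listed at 0 in P60C. It overlaps CT-BMY, a chloroplast beta-amylase gene, which was at 198.7 FPKM in C0 and 290.7 in C30C, and reads of overlapping genes cannot be told apart without strand. AT4G05910 (-1.86) overlaps HSFB2B, which fell as well. AT3G08230 (-2.73), MIR414 (-2.07) and AT5G02515 (-1.22) complete the list, with about 3 fragments each behind AT3G08230 and MIR414 in C30C. Non-coding and miscellaneous RNAs made up 7.71% of the fallen, 6.07% of the risen and 2.125% of all genes with a ratio.

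The largest listed group of fallers did not fall in primed plants. Few fallen genes did: 88 of all 817 (10.8%) fell in P30C/P0, where 1.16% of all genes fell and 6.98% rose. The missing overlap alone therefore does not set the group apart. Of 26 genes of aliphatic glucosinolates, the methionine-derived defence compounds of Arabidopsis, 17 fell and none rose in C30C/C0, with a median of -0.76, and none of the 26 rose or fell in P30C/P0, with a median of 0.19. BCAT4, the first enzyme of the chain, was at 89.1 FPKM in C0, 56.3 in P0, 38.4 in C30C and 68.8 in P30C (-1.21). MAM1, which elongates the chain, was at 126.8, 80.1, 59.4 and 98.8 FPKM (-1.10), and MYB29, a regulator of the pathway, at 44.7, 32.2, 22.0 and 32.9 (-1.02). In all 3 genes C30C was the lowest of the 4 libraries and C0 the highest, and P0 and P30C lay between. IMD1 (-1.10), FMOGSOX3 (-1.05) and IPMI2 (-1.04) fell alike. At 60 min the median was back at -0.06 and at 120 min at -0.19. With P0 in place of C0 the fall of GSTF11 (-0.88) and FMOGSOX2 (-0.62) turned into 0.19 and 0.24, and the list's median to -0.34.

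Genes of veins and of growing tissue were low in C30C too. All 4 phloem markers had negative ratios and 2 fell, APL (5.32 to 3.05 FPKM, -0.80), a factor of phloem identity, and PP2-A1 (37.0 to 22.7, -0.71), a sieve element protein, with a median of -0.56 against -0.17 in P30C/P0. Their summed level was 76.5 FPKM in C0, 83.9 in P0, 52.8 in C30C and 74.6 in P30C, and the other 12 libraries lay between 80.4% and 119% of C0 while C30C was at 69.1%. Lists of further genes were then added after these values had been seen. All 4 measured genes of cambium and xylem fell, among them PXY, a receptor kinase of the cambium (3.43 to 1.46 FPKM, -1.23), and XCP1, a xylem protease (2.45 to 1.29, -0.93). Of 8 measured genes of dividing cells and young leaves 4 fell, AN3 (-1.29), CDKB2;1 (-1.01), KNOLLE (-0.97) and ANT (-0.88), and 1 rose, GRF1 (0.80). None of the fallen genes of these 2 lists fell in P30C/P0. Only 88 of all 817 fallen genes (10.8%) and 1.16% of all genes fell there, so this does not set the lists apart. The medians of the 2 lists in P30C/P0 were -0.15 and -0.17. C30C had the lowest summed level of all 14 libraries for the aliphatic glucosinolate genes (65.8% of C0) and the phloem markers. The same held for the cambium and xylem genes (58.7%) and the dividing and young leaf genes (61.5%). As these 2 lists were added after the values had been seen, their rank in C30C is not a separate result. Next lowest was P30L for the glucosinolate genes (74.96%), the cambium and xylem genes (71.99%) and the dividing and young leaf genes (68.14%). The dividing and young leaf genes summed to 47.36 FPKM in C0, 29.14 in C30C, 33.5 in C60L, 33.82 in P60L and 35.56 in C30L. A low level of these dividing and young leaf genes was thus not particular to C30C. The antenna and Rubisco genes of the mesophyll had all 24 ratios between 0.03 and 0.40. Their summed level was at 112% of C0 in C30C, and also in P30C and P120C, so it did not set C30C apart. Fewer cells of a type and less RNA per cell cannot be told apart in whole rosettes, and the part of tissue makeup in the fall of these genes was not tested.

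**Figure D3:**
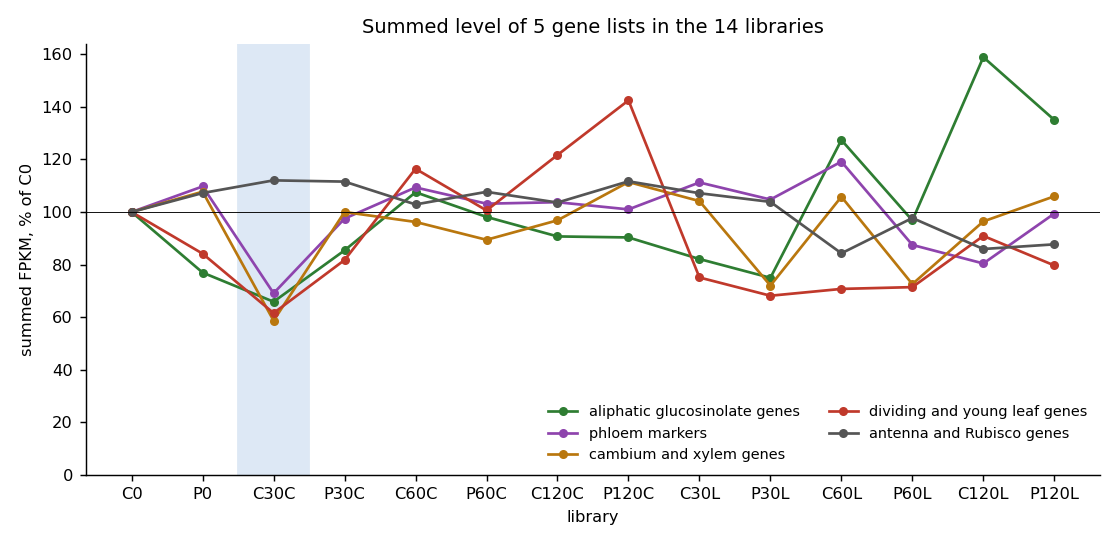
Summed FPKM of 5 gene lists in each of the 14 libraries, as % of C0, with C30C shaded. Aliphatic glucosinolate genes, phloem markers, cambium and xylem genes and dividing and young leaf genes have their lowest value in C30C (58.7% to 69.1%), while antenna and Rubisco genes are at 112%, as in P30C and P120C. The cambium and xylem list and the dividing and young leaf list were added after the values had been seen.

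The fallen share moved with level, and the risen share and the median ratio with transcript length. Among 3438 genes with a mean from 2 to 5 FPKM 13.5% fell and 6.02% rose, among 1017 genes from 100 FPKM on 1.47% and 3.15%. A gene of the median length of 1662 bases at 2 FPKM rests on about 70.8 fragments in C0 and 66.1 in C30C. Over 5 classes of transcript length with like numbers of genes, the median log2 ratio went from -0.05 in the shortest to -0.22 in the longest, and the share of risen genes from 6.92% to 0.93%. The share of fallen genes was 7.15% in the shortest and 5.46% in the longest class, and between 4.53% and 5.16% in the other 3. In the primed pair the medians of the same 2 classes were 0.09 and -0.16, and in C60C/C0 -0.08 and -0.06. The part of length and of RNA quality in the counts of risen and fallen genes was not tested.

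Hormone genes rose in part. Of 15 jasmonate synthesis genes 6 rose and none fell, all 6 also in the primed pair. LOX3, a lipoxygenase, was at 28.9 FPKM in C0, 18.4 in P0, 75.1 in C30C and 38.8 in P30C (1.38). AOC1 rose from 78.2 to 200.4 FPKM (1.36) and OPR3 from 99.4 to 181.2 (0.87), and AOC3 (1.05), AOC2 (0.86) and LOX4 (0.80) rose too; the AOC genes are closely related and their reads may be shared. For AOC1 and OPR3 the primed plants were lower before (44.8 and 39.8 FPKM) and after the cold (91.4 and 81.2). Of 18 JAZ repressors and MYC-type factors 6 rose, led by JAZ8 (1.75 to 6.44 FPKM, 1.88), JAZ1 (53.6 to 99.2, 0.89) and JAZ9 (208.6 to 365.6, 0.81). Of 16 genes of jasmonate turnover and response 8 rose, among them the catabolic CYP94B3 (3.25 to 10.2, 1.64) and CYP94C1 (2.96 to 8.56, 1.53). PDF1.2, a defensin gene, fell from 26.5 to 16.2 FPKM (-0.71), and CYP94B3 was at 7.51 and 6.18 in primed plants.

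Of 16 salicylic acid genes 7 rose and none fell, all 7 also in primed plants, where 14 rose and the median was 2.09 against 0.47 here. PR5 was at 31.98 FPKM in C0, 24.3 in P0, 62.0 in C30C and 187.7 in P30C (0.96), PR2 at 16.7, 14.7, 26.2 and 126.9 (0.65), and DLO1, a salicylic acid hydroxylase, at 0.89, 1.24, 3.45 and 27.4 (1.95). The cold libraries lay above the untriggered ones in each, with P30C well above C30C; whether the primed and unprimed responses differ was not tested, as there is 1 library of each. PR1 was back at 7.62 FPKM in C60C, and was at 28.2 in P60C. Of 3 measured senescence markers 2 rose in C30C, SAG13 (5.24 to 13.5 FPKM, 1.36) and ORE1 (1.91 to 3.47, 0.86), and the third had a ratio of 0.05. Only SAG13 rose in primed plants, from 3.83 to 30.6, where the median of the 3 was 0.09.

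Of 19 abscisic acid genes 7 rose and 2 fell. The 3 hydroxylase genes CYP707A3, CYP707A2 (3.15 to 6.10 FPKM, 0.95) and CYP707A1 (1.55 to 2.59, 0.74), which break the hormone down, rose together with NCED3 (2.14 to 4.52, 1.08), which makes its precursor, and with the receptor gene PYL5 (1.69 to 4.44, 1.39). The phosphatase gene HAI1 (2.1 to 0.98, -1.10) and the glucosidase gene BGLU18 (128.2 to 77.9, -0.72) fell. Neither fell in the primed pair, where only 88 of all 817 fallen genes (10.8%) did. In ethylene and gibberellin metabolism 5 of 11 rose and 1 fell. ACS6, a synthase of the ethylene precursor, was at 14.4 FPKM in C0, 17.74 in P0, 52.1 in C30C and 57.2 in P30C (1.85) and returned to 7.85 in C120C, and the gibberellin-inactivating GA2OX1 rose from 8.43 to 20.9 (1.31). Of 35 Aux/IAA, GH3 and SAUR genes 6 rose and 5 fell, with GH3.6 (6.66 to 1.95, -1.77) and SAUR10 (1.3 to 0.46, -1.50) lowest and SAUR19 (1.08 to 3.1, 1.52) and IAA6 (4.88 to 11.2, 1.2) highest. Members of the SAUR19 group are nearly identical, and their reads may be split between them.

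Of 27 light signalling genes 7 rose and none fell. BBX22, a B-box protein, was at 10.96 FPKM in C0, 11.3 in P0, 34.03 in C30C and 35.1 in P30C (1.63), BBX29 rose from 9.83 to 23.5 (1.26) and BBX28 from 39.1 to 74.4 (0.93). HFR1 (1.85 to 4.89, 1.4) and ATHB2 (17.2 to 41.1, 1.25), known from shade responses, rose too. Smaller counts were found for indolic glucosinolate and tryptophan genes (2 of 13 rose, 1 fell), sulfate, nitrate and iron genes (1 of 9 rose, 1 fell), sugar-starvation genes (1 of 12 rose) and cold shock domain and glycine-rich RNA-binding genes (1 of 6 fell, CSP4, 3.64 to 2.34 FPKM). None of the 5 measured guard cell markers rose or fell, which does not set them apart, as most genes stayed within 1.5-fold. The 5 root markers summed to 0.32 FPKM in C0 and 0.97 in C30C, and the 5 flower markers to 2.05 and 1.85, of which AG alone was at 1.96 and 1.58.

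**Figure D4:**
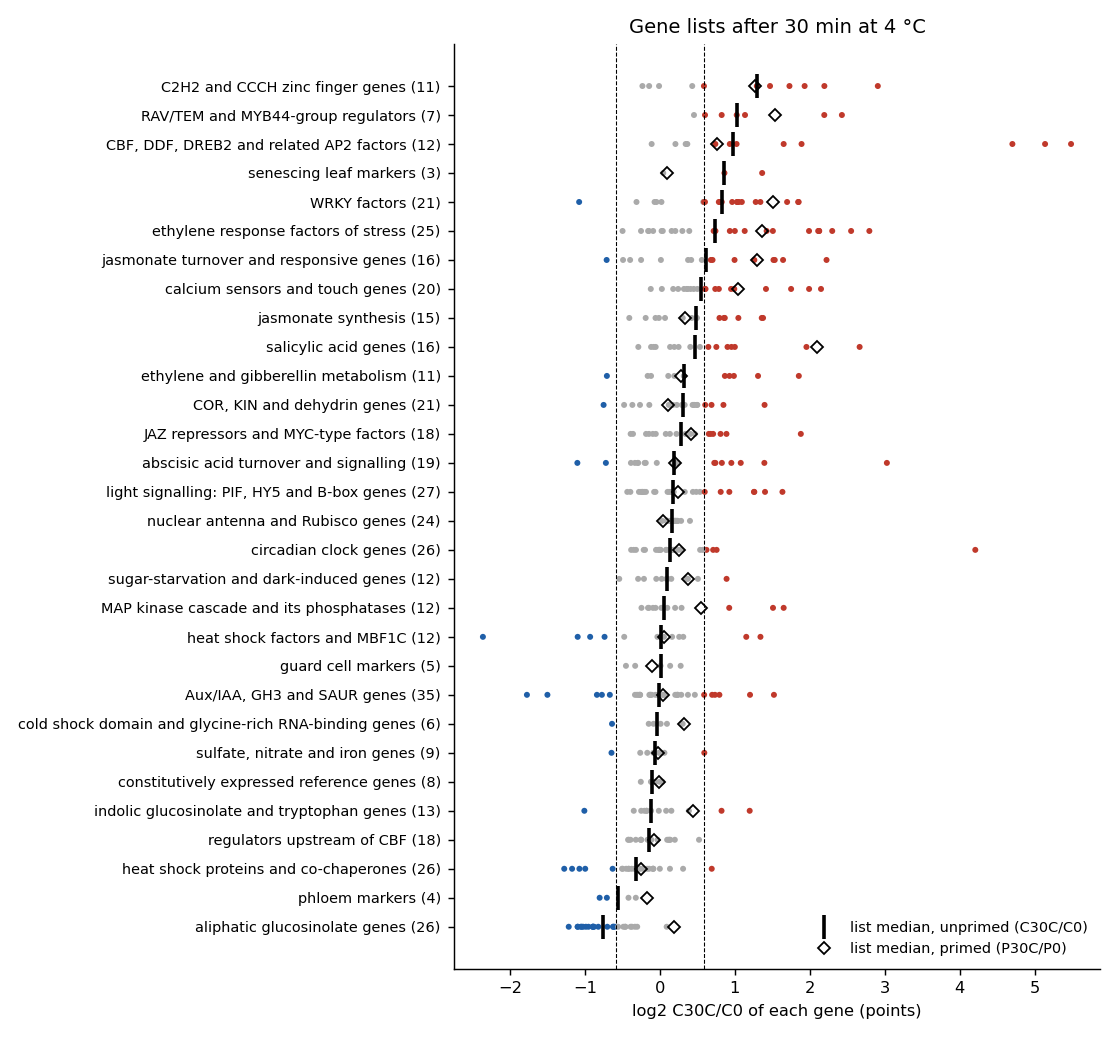
log2 C30C/C0 of each measured list member (red rose, blue fell, grey inside 1.5-fold), the list median (bar) and the median in P30C/P0 (diamond); the number in brackets is the number of genes with a ratio. Zinc finger genes have the highest median (1.29) and aliphatic glucosinolate genes the lowest (-0.76), and for the latter the primed median is 0.19.

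The risen genes were followed in the primed plants at the later times, which share no library with C30C/C0. Of the 643 genes 555 (86.3%) were at least 1.5-fold above P0 in P60C and 439 (68.3%) in P120C, where 9.64% and 10.0% of all genes were. In high light, 322 (50.1%) were risen in P30L/P0, against 8.42% of all genes, and 85 (13.2%) fallen, against 7.16%. Of the 817 fallen genes 131 (16.0%) had fallen in P60C/P0 and 194 (23.7%) in P120C/P0, where 2.48% and 8.71% of all genes had. In unprimed plants CBF3 (192.7 FPKM at 120 min), RAV1 (158.8), PRR5 and AT5G62360 (164.6) kept climbing after 30 min, whereas DIC2 (89.4 at 60 min and 36.5 at 120 min), TCH4 (74.6 and 30.9), SZF1 (59.1 and 22.3), ACS6 and PR1 had their highest cold level at 30 min. The later values share C0 with C30C/C0 and are given side by side only. For PRR5 the climb is not a separate result, as it passed the filter on the mean through its later cold values.

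**Figure D5:**
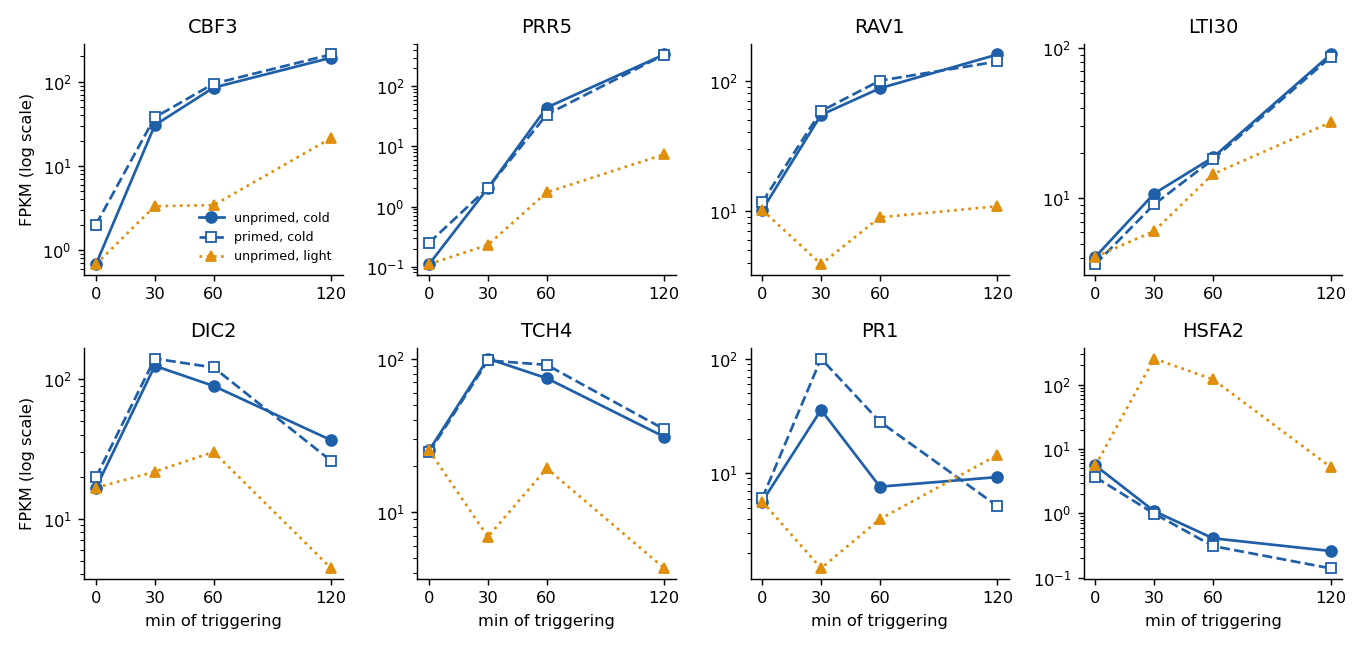
FPKM on a log scale against minutes of triggering in unprimed cold (filled circles), primed cold (open squares) and unprimed high light (triangles) for 8 genes. CBF3, PRR5, RAV1 and LTI30 climb to 120 min in the cold, DIC2, TCH4 and PR1 peak at 30 min, and HSFA2 falls in the cold to 0.26 FPKM and is at 253.5 after 30 min of light. PRR5 passed the filter on the mean through its later cold values, and HSFA2 through its light values. Primed high light is not drawn, where PR1 was at 53.5 FPKM after 30 min.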

How the data were processed

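RNA-seq values of 14 libraries (1 per condition, whole rosettes) were used. The authors aligned and quantified the reads against TAIR10, with Bowtie2 and RSEM according to their methods and HISAT2 2.1.0 according to the submitters' processing notes, and deposited 1 table of FPKM with 2 decimals. FPKM were used as deposited, with no scaling and no pseudocount. Ratios are log2 of FPKM, called past 1.5-fold, for genes with a mean of at least 2 FPKM. There are no replicates of a condition, and no test was made. A fit over unprimed and primed plants together was not run, since it estimates their joint response.

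Depth was estimated from the step of the values of genes with 1 RefSeq transcript, as 19.9 M fragments in C30C and 21.3 M in C0 (16.3 to 28.8 M in the 14 libraries). Exact binomial intervals from these fragments are 95% and cover counting error only. Transcript lengths, loci and promoter windows came from the RefSeq annotation of TAIR10.1, where 15038 of 15074 codes matched. The ratio and call functions were tested on simulated data. Python 3.11.15, pandas 2.3.3, NumPy 2.4.6, SciPy 1.17.1 and matplotlib 3.10.9 were used.

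Genes named singly are the 12 with the highest and the 12 with the lowest ratio among those with at least 0.5 FPKM in C0 and P0, at least 5 FPKM in C0 or C30C, and a change past 1.5-fold in the same direction in P30C/P0. For this rule alone a value of 0 in P30C counted as a fall, as for AT3G08230. Up to about 6 examples are named per list, those with the largest ratio first, plus others on which a count turned. The genes and the lists were chosen with earlier results of these data known. As alternatives, 2-fold changes, adding 1 FPKM to each value, other filters, scaling by the 8 reference genes or the median ratio, and P0 as the untriggered library were tried.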

Additional observations from a re-analysis of the deposited data

Results flagged for a closer look

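For 3 listed genes the 30 min ratios of unprimed and primed plants passed 1.5-fold in opposite directions. These were DDF1 (log2 1.65 in C30C/C0 and -1.14 in P30C/P0), PDF1.2 (-0.71 and 0.87) and GH3.3 (-0.77 and 0.58). The difference between the plants was not tested, since there is 1 library of each condition. DDF1 was at 1.92 FPKM in C0 and 6.32 in P0, PDF1.2 at 26.5 and 7.54, and GH3.3 at 1.23 and 0.86, so the untriggered levels differed too.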

How the results depend on the processing

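The number of risen genes was 643 and that of fallen genes 817. A 2-fold threshold left 273 and 166, a mean of at least 10 FPKM 306 and 177, and no filter on the mean gave 1681 and 3322. With P0 as the untriggered library 977 genes rose and 528 fell. A pseudocount of 1 FPKM left 446 fallen genes and scaling by the median ratio 505, so that the order of the 2 counts turns with 813 risen genes under that scaling, and with 755 against 563 under scaling by the reference genes. Scaling by the median ratio shifts every log2 ratio by 0.11. The share of risen genes that rose in P30C/P0 was 79.6%, and 83.7% with a mean of at least 10 FPKM, 56.6% with no filter, 72.3% with reference gene scaling and 72.2% with median ratio scaling. For the fallen genes the share was 10.8%, and 6.63% with 2-fold in both pairs (16.9% of the genes fallen 2-fold in C30C/C0 fell 1.5-fold in P30C/P0), 13.6% with a mean of at least 10 FPKM, 18.6% with no filter and 15.8% with reference gene scaling. Chosen after seeing the data were protein-coding genes only (82.6% of the risen genes) and a mean of at least 5 FPKM (354 fallen genes, 83.5% of the risen genes). The cause of these moves was not tested. With P0 as the untriggered library 7 of the 199 single genes past 1.5-fold changed sign (genes inside 1.5-fold were not counted): DDF1 (-0.068), PDF1.2 (1.104), BGLU18 (0.049), GSTF11 (0.19), FMOGSOX2 (0.24), CYP81F4 (0.87) and SAUR22 (-0.23). None of the 8 list medians past 1.5-fold changed sign. Of all 30 list medians 12 moved by more than the SD of log2 P0/C0 over genes when P0 was used, such as jasmonate turnover (0.62 to 1.91) and JAZ and MYC-type genes (0.28 to 1.13), and 3 with a mean of at least 10 FPKM: ethylene response factors (0.74 to 0.30), zinc finger genes (1.29 to 1.60) and heat shock factors (0.01 to -0.74). No fit blocked on priming was run.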
